A study of Homo sapiens with 6 samples.

Results

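Aquaporins are membrane channels that let water cross the cell membrane, and 8 of their genes were examined here in 12Z cells, an established epithelial line from endometriosis, with and without knockdown of the long noncoding RNA LINC01133. The 8 genes AQP1, AQP3, AQP4, AQP5, AQP7, AQP9, AQP10 and AQP11 were taken by symbol from the 60660 genes of the count tables. AQP1 led to the choice of the family because it was the most lowered well-counted gene of the comparison, so its change is described without a test. The control group held 3 libraries of 12Z cells transfected with a non-targeting siRNA, and the knockdown group held 3 libraries of 12Z cells transfected with siRNA LINC01133a at 10 nM. All libraries were poly-A RNA taken 72 h after transfection with the same lipid reagent. The study describes them as biological replicates, all of a single cell line. A single siRNA against LINC01133 was sequenced, so an effect of the lost RNA and one of this oligo cannot be told apart in these libraries.

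Aquaporins fall into subfamilies by what passes through the pore. AQP1, AQP4 and AQP5 conduct mainly water. AQP3, AQP7, AQP9 and AQP10 are aquaglyceroporins, which also pass glycerol and other small uncharged solutes, and AQP3 passes hydrogen peroxide as well. AQP11 belongs to a distant branch and lies largely in intracellular membranes, mainly the endoplasmic reticulum. AQP1 was first described in red blood cells and is abundant in endothelium and kidney tubules, and several aquaporins have been described in the endometrium, where fluid transport varies with the cycle.

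Each library gave 27742562 to 37551194 counts of read pairs on genes, on the strand that held 93.9% to 94.1% of all stranded counts. LINC01133 itself had 859, 726 and 808 counts in control and 153, 135 and 122 in knockdown libraries, which after normalization left 16.2% of the control level. The labelled epithelial line expressed the keratin genes KRT8, KRT18 and KRT19, with 104551, 57533 and 39956 normalized counts on average in control cells. EPCAM and CLDN3, markers of many epithelia, were low, with 93 and 10 counts over the 6 libraries. The stromal genes COL1A1 and VIM were also high, with 87700 and 52853 normalized counts on average in control cells.

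The sequences of the siRNA are shown because LINC01133a sets the knockdown group apart by design. Capitals mark the seed, bases 2 to 8 from the 5′ end, of the antisense strand (guide) and of the sense strand (passenger).
Guide: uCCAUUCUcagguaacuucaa
Passenger: gAAGUUACcugagaauggatt
The full target of the guide in LINC01133 was found on chromosome 1 at 159976669 to 159976687 of GRCh38 (plus strand), in 3 of the 5 transcripts of GENCODE v44.
LINC01133 target: GAAGTTACCTGAGAATGGA
The 7-base match to the guide seed is AGAATGG, and that to the passenger seed is GTAACTT. Among 12542 tested genes with an annotated 3′ UTR, 25.4% held the first and 17.4% the second there. Neither match was found in any of the 8 transcripts of AQP1, nor in the 2 of AQP11. The longest run of bases in an AQP1 transcript that could pair with the 19-base core of the guide was 7, and 90.7% of tested genes had a run at least as long.

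AQP3 held a guide seed match in its 3′ UTR, on chromosome 9, 33441782 to 33441788, minus strand, and AQP7 held another from 33384796 to 33384802. They are shown with their flanks, with the matching bases in capitals.
AQP3 site: caagggaagAGAATGGgcagcaggt
AQP7 site: cccagggggAGAATGGggaagagat
A match is a description of the letters only, and no match was tested for an effect on these genes.

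AQP1 (ENSG00000240583.13), chromosome 7, 30911853 to 30925517 of GRCh38, plus strand, was the aquaporin with the highest counts in control cells. It had 245, 226 and 174 counts in control libraries 1 to 3 and 34, 24 and 35 in knockdown libraries 1 to 3. After normalization this was 222 ± 38.1 with the control siRNA and 30.6 ± 8.35 after knockdown (SD, n = 3 per group), which left 13.8% of the control level. Every knockdown library lay below every control library, and the lowest control value, 180 in library 3, was above the highest knockdown value, 39.7 in library 3. The fitted log2 fold change was -2.88, given as a description because AQP1 was chosen by it.

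Among 990 genes that passed the cutoffs given below, had no overlap between groups and averaged 100 or more normalized counts, AQP1 ranked first by loss, at a mean of 126. The next was YME1L1, which encodes a mitochondrial protease, with a log2 fold change of -2.69. Beneath the count limit, AKR1B10 (-3.01) and LGALS2 (-2.92) had lower values than AQP1, at mean normalized counts of 29.5 and 7.34. They were the 2 of 15155 tested genes with a lower value.

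**Figure D1:**
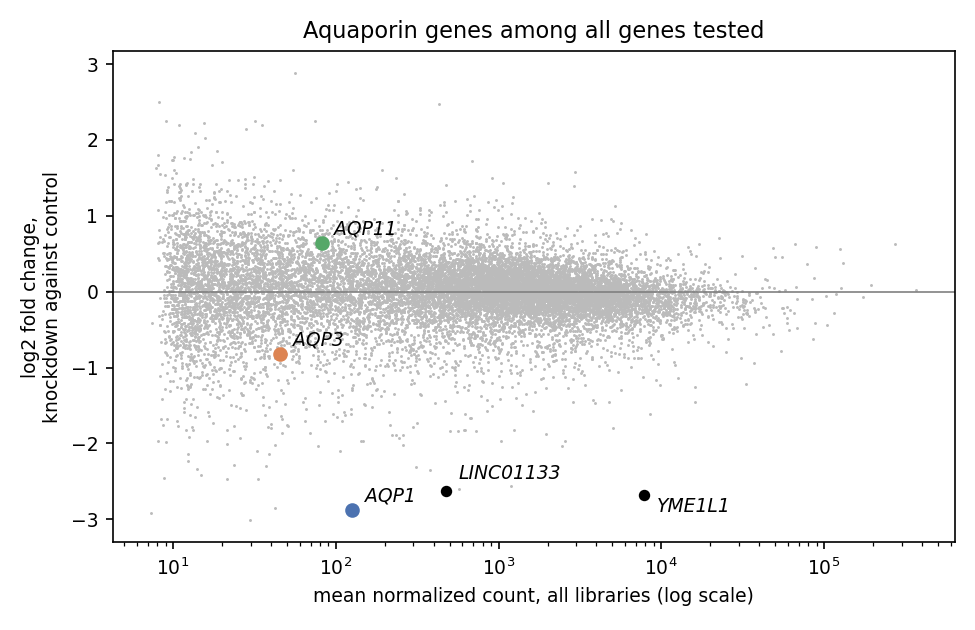
Each point is a tested gene, with its mean normalized count over all 6 libraries on a log scale across and its log2 fold change (knockdown against control) upward. AQP1, at -2.88, lies at the lower edge near YME1L1 and LINC01133, AQP3 lies at -0.82 and AQP11 at 0.65.

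All 15155 genes that passed a filter on low counts were compared by the quasi-likelihood test of edgeR. A gene was called where p, adjusted over them by the Benjamini-Hochberg (BH) method, was below 0.05 and the level moved more than 1.5-fold either way, the cutoffs of the study. So 11.7% of the genes were called, 5.3% higher and 6.43% lower after knockdown, and 48.3% passed on adjusted p alone. Of the 8 aquaporin genes, 3 passed the filter, and 5 did not. All 3 were called, AQP1 and AQP3 lower and AQP11 higher, and for AQP1 the call is part of how the family was chosen. With so few genes, nothing is read from this share.

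AQP3 (ENSG00000165272.16), chromosome 9, 33441156 to 33447596, minus strand, encodes an aquaglyceroporin common in epithelia. It had 58, 63 and 47 counts in control libraries 1 to 3 and 39, 27 and 35 in knockdown libraries 1 to 3. After normalization this was 58.2 ± 11.5 with the control siRNA and 33.0 ± 6.75 after knockdown (SD, n = 3 per group). The groups did not overlap, with the lowest control value at 48.7 and the highest knockdown value at 39.7, and 57.3% of all tested genes did not overlap either. AQP3 fell by 0.82 on the log2 scale (standard error 0.21, 95% interval from -1.27 to -0.37, edgeR, adjusted p = 0.0055).

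AQP11 (ENSG00000178301.4), chromosome 11, 77589391 to 77610356, plus strand, moved in the opposite direction. It had 67, 51 and 68 counts in control libraries 1 to 3 and 121, 95 and 93 in knockdown libraries 1 to 3. After normalization this was 63.8 ± 6.52 with the control siRNA and 100.1 ± 6.96 after knockdown (SD, n = 3 per group). Every knockdown library lay above every control library, the nearest values being 92.2 and 70.5. The log2 fold change was 0.65 (standard error 0.14, 95% interval from 0.34 to 0.95, edgeR, adjusted p = 0.0018). Without control replicate 2 the value was 0.58, under the fold change cutoff, with a edgeR adjusted p of 0.0049. CLNS1A, a chloride current and splicing factor gene, overlaps AQP11 on the other strand, and with counts taken without regard to strand the log2 fold change of AQP11 was 0.60.

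**Figure D2:**
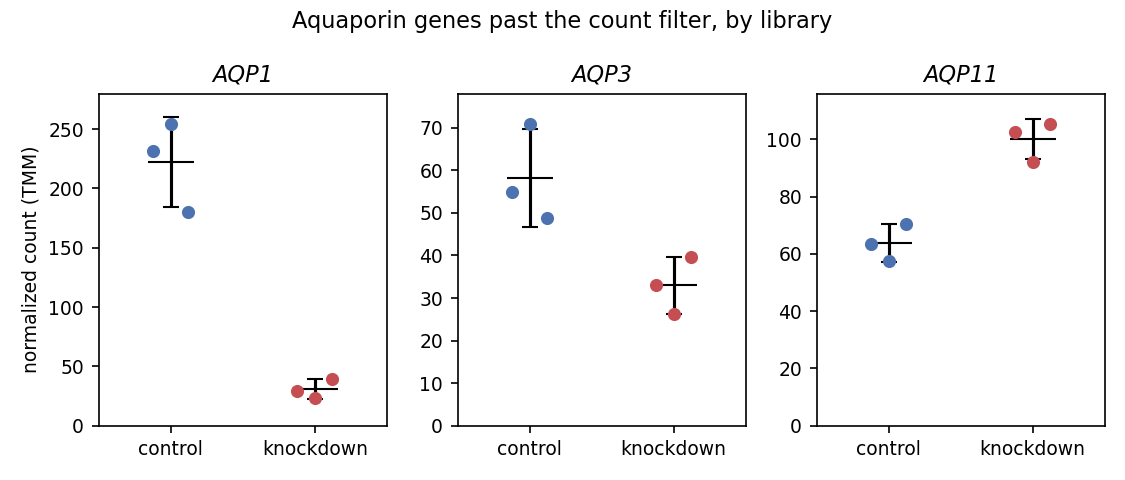
Points are the normalized counts of single libraries for AQP1, AQP3 and AQP11, with the group mean as a horizontal line and the SD as whiskers (3 libraries per group; each panel has its own scale from 0). AQP1 and AQP3 lie lower in every knockdown library than in any control library, and AQP11 lies higher.

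The other 5 genes were at or near the detection limit in both groups. AQP4, the main water channel of astrocytes, and AQP10, an aquaglyceroporin of the gut, had 0 counts in all 6 libraries, which allows up to 0.0154 CPM (counts scaled to 1e6 per library) over all libraries, taking 3 counts as the limit. AQP9, an aquaglyceroporin of liver and leukocytes, had 1 count, in knockdown library 1. AQP5, a water channel of secretory glands, had 6, 3 and 1 counts in control and 1, 1 and 6 in knockdown libraries. Its ratio of knockdown to control was 0.753 with a 95% exact interval from 0.258 to 2.12. AQP7, the glycerol channel of fat cells, had 4, 1 and 0 counts against 0, 0 and 3, a ratio of 0.565 with an interval from 0.0877 to 2.90. These intervals cover counting error only, and the groups overlapped for both genes, so no difference was detectable at this depth. AQP7 has near-identical copies in the genome, and its 5 listed pseudogenes held 1 count in all, but reads that mapped to several places had been discarded, so AQP7 may be counted incompletely.

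The remaining 6 aquaporin genes, named to complete the family, were not tested either because none passed the filter. MIP, AQP12A and AQP12B had 0 counts, and AQP2 and AQP8 had 2 counts each. AQP6 had 3, 3 and 0 counts in the control libraries and 0 in every knockdown library, too few for a fold. The antisense gene AQP5-AS1 had 6 counts, and AQP4-AS1 and AQP7B had 0. No aquaporin with 0 counts in all control libraries had more than 1 count in any knockdown library.

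Summed normalized counts over the 14 aquaporin genes describe whether other aquaporin RNA rose as that of AQP1 fell. Protein and water transport were not measured, so whether function was made up for was not tested. The sum was 364, 392 and 301 in control libraries 1 to 3 and 166, 144 and 196 in knockdown libraries 1 to 3. These groups did not overlap, and the knockdown mean was 47.9% of the control mean, or 57.8% per kilobase of exon. Without AQP1 the sum was 130 ± 8.76 with the control siRNA and 138 ± 18.1 after knockdown (SD, n = 3 per group). Here the ranges overlapped, from 120.2 to 137 in control and from 120.4 to 157 in knockdown libraries. Per kilobase of exon the sum without AQP1 was 1.63 ± 0.0694 CPM in control and 1.87 ± 0.219 CPM in knockdown libraries. That was 114.7% of the control level, again with overlapping ranges. AQP1 lost 192 normalized counts on average, AQP3 lost 25.2 and AQP11 gained 36.3. The gain of AQP11 was 18.95% of the loss of AQP1 in counts and 29.1% per length of exon. These sums include the gene that led to the choice of the family and are given with no test.

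The share of AQP1 among aquaporin counts was 62.9% ± 2.59 with the control siRNA and 17.9% ± 2.07 after knockdown (SD, n = 3 per group). That of AQP11 went from 18.5% ± 4.49 to 59.9% ± 5.45, and that of AQP3 from 16.5% ± 1.52 to 19.5% ± 1.06. AQP11 thus held the largest share of aquaporin counts in all 3 knockdown libraries, and AQP1 in all 3 control libraries. These are parts of a sum that fell with AQP1, so the shares of other genes rise even without more RNA. In normalized counts, AQP11 rose to 157% of its control level and AQP3 fell to 56.7% of its own.

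**Figure D3:**
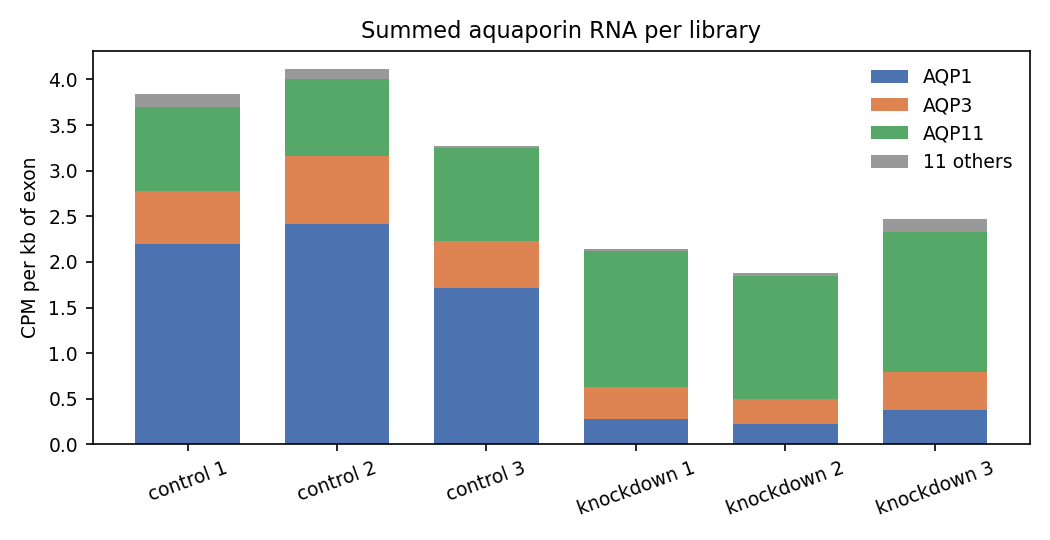
Bars stack the levels of AQP1, AQP3, AQP11 and the 11 other aquaporin genes in each library, as CPM per kilobase of exon. The bars are lower in knockdown libraries, where AQP1 (blue) is a thin layer and AQP11 (green) makes up most of the height.

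Levels of different genes were compared as CPM per kilobase of annotated exon. In control cells AQP1 was highest at 2.11 ± 0.361, followed by AQP11 at 0.927 ± 0.0948 and AQP3 at 0.618 ± 0.122 CPM per kb (SD, n = 3 per group). The 3 control ranges did not overlap: the lowest value of AQP1 was 1.71, the range of AQP11 was 0.835 to 1.02, and the highest value of AQP3 was 0.753. In knockdown cells AQP11 was highest at 1.46 ± 0.101, and AQP3 at 0.350 ± 0.0716 and AQP1 at 0.290 ± 0.0791 had overlapping ranges. The level of AQP1 was 2.27 times that of AQP11 in control cells, while in knockdown cells the level of AQP11 was 5.02 times that of AQP1. Of the 3261 exon bases of AQP1, 27.9% are shared with the read-through gene ENSG00000250424 on the same strand. STAR assigns read pairs that fit 2 genes to neither, so AQP1 can be undercounted in every library, and that gene itself had 0 counts. Over the 2351 unshared bases the levels of AQP1 were 2.92 and 0.402 CPM per kb, against 0.350 for AQP3 in knockdown cells, with ranges that still overlapped.

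The 3 genes also differed in their neighbourhood on the chromosome, within 250 kb of either end. Around AQP1, none of 10 annotated genes passed the filter, and 8 had 0 counts in all libraries. MINDY4, the most counted of them, had 54 counts over the 6 libraries. Around AQP3, 10 of 28 genes were tested, and the only one called, the noncoding gene ENSG00000260947, rose with a log2 fold change of 1.101. NOL6, a ribosome assembly gene 13757 bases away, had a log2 fold change of -0.089 (edgeR, adjusted p = 0.17). Around AQP11, none of 4 tested genes was called, with log2 fold changes between -0.15 and 0.034.

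The genes whose log2 CPM followed that of AQP1 most closely over the 6 libraries were PGF, SLC26A2, GRAMD1B, SEMA3C and EMILIN2, with Pearson's r from 0.998 to 0.999 among 11177 genes averaging 100 or more normalized counts. PGF, a growth factor of the VEGF family, fell from 472 to 186 normalized counts, and SLC26A2, a sulfate transporter, from 1742 to 1071. For AQP3 the closest were METTL14, DCHS1, ARID2, ZNF618 and PPL (0.9896 to 0.9923). For AQP11 they were FDXR, NATD1, THRAP3, RABEP2 and DNAJC24 (0.996 to 0.999), each with a log2 fold change between 0.10 and 0.47 and thus under the cutoff. The 6 libraries form 2 groups, so r is a description of these libraries only, and 152 genes had an r over 0.99 with AQP1. Among the aquaporins themselves r was 0.94 between AQP1 and AQP3, -0.94 between AQP1 and AQP11, and -0.85 between AQP3 and AQP11.

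AQP1 also helps carbon dioxide to cross membranes in some cells, and carbonic anhydrases and bicarbonate transporters handle that gas and its ion. Of 20 such genes, 11 were tested, of which 4 were lower, 1 was higher and 6 were not called (45.5% called, against 11.7% of all genes). With so few genes in the list, nothing is read from this share. CA12 and CA9, membrane-bound carbonic anhydrases with their active site outside the cell, both fell, and CA4 and CA14, of the same kind, had 2 counts each and were not tested. CA12 had 2533, 2186 and 2362 counts in control libraries 1 to 3 and 949, 847 and 733 in knockdown libraries 1 to 3. This left 33.6% of its control level, a log2 fold change of -1.57 (standard error 0.041, edgeR, adjusted p = 3.1e-11). CA9 had 115, 105 and 116 counts against 52, 38 and 37, its log2 fold change being -1.49 (standard error 0.14, edgeR, adjusted p = 2.2e-06). For both genes the groups lay far apart compared with the spread within them.

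SLC4A8, a sodium-driven chloride and bicarbonate exchanger, fell to 40.9% of its control level, from 253 ± 45.0 to 103 ± 8.06 normalized counts (SD, n = 3 per group). SLC4A4, the sodium bicarbonate cotransporter, rose to 170% of it, from 157 ± 2.80 to 268 ± 23.6 (SD, n = 3 per group). CA11, a carbonic anhydrase relative without enzyme activity, had a log2 fold change of -0.67, but -0.58 and no call without control replicate 3. CA2, the cytosolic enzyme of red cells, had 6 counts over the 6 libraries. The median log2 fold change of the 11 tested genes was -0.55, the value of SLC4A7, which was not called. That of all tested genes was 0.0032. Nothing is read from the median of so short a list, chosen with earlier results of these data known.

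Of 16 genes of cell volume transport, all were tested, and 2 were lower, 0 higher and 14 not called (12.5% called, close to the 11.7% of all genes). ANO6, a phospholipid scramblase and ion channel, fell to 55.2% of its control level, from 7554 ± 372 to 4170 ± 45.2 normalized counts (SD, n = 3 per group). LRRC8C, a subunit of the volume-regulated anion channel, fell to 61.5%, from 1863 ± 121 to 1145 ± 62.3. The obligatory subunit LRRC8A had a log2 fold change of 0.40, under the cutoff. The cotransporters SLC12A2 and SLC12A4, which move salt into and out of the cell, had values of -0.41 and 0.42, also under it, and TRPV4, a channel that responds to swelling, had 0.17 (edgeR, adjusted p = 0.55).

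Organic osmolytes keep the cell's water content stable, and 6 of 7 genes for them were tested, 2 lower, 0 higher and 4 not called (33.3% called, against 11.7% of all genes). SLC6A6, the taurine transporter, had 4544, 4632 and 3533 counts in control libraries 1 to 3 and 2435, 2117 and 1980 in knockdown libraries 1 to 3, a log2 fold change of -1.05 (standard error 0.095, edgeR, adjusted p = 1.3e-06). SLC5A3, the inositol transporter, had 5323, 6319 and 4314 counts against 3308, 2593 and 2726, a log2 fold change of -0.98 (standard error 0.13, edgeR, adjusted p = 3.7e-05). Neither gene's groups overlapped. NFAT5, the transcription factor that both respond to in hypertonic medium, had 2859 ± 646 and 2852 ± 135 normalized counts (SD, n = 3 per group), with a edgeR adjusted p of 0.999.

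For the solutes that aquaglyceroporins pass, no gene was called. Of 10 genes of glycerol handling, 9 were tested. PNPLA2, the first lipase of triglyceride breakdown, had a log2 fold change of 0.37 and MGLL, the last, one of -0.54, while the glycerol kinase GK had 0.054 (edgeR, adjusted p = 0.57). Of 19 matched genes of hydrogen peroxide handling, 14 were tested. GPX7, a peroxidase of the endoplasmic reticulum, came closest to the cutoff with 0.577, and CAT, which encodes catalase, had 0.033 (edgeR, adjusted p = 0.65). Other channels for small solutes, the urea transporters SLC14A1 and SLC14A2 and 4 Rh glycoproteins, did not pass the filter. Over the 6 lists of solute and volume genes, 56 genes were tested, with 1 called higher and 8 lower. This was 16.1% called, against 11.7% of all genes. The lists are short and were chosen with earlier results of these data known, so nothing is read from their shares.

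**Figure D4:**
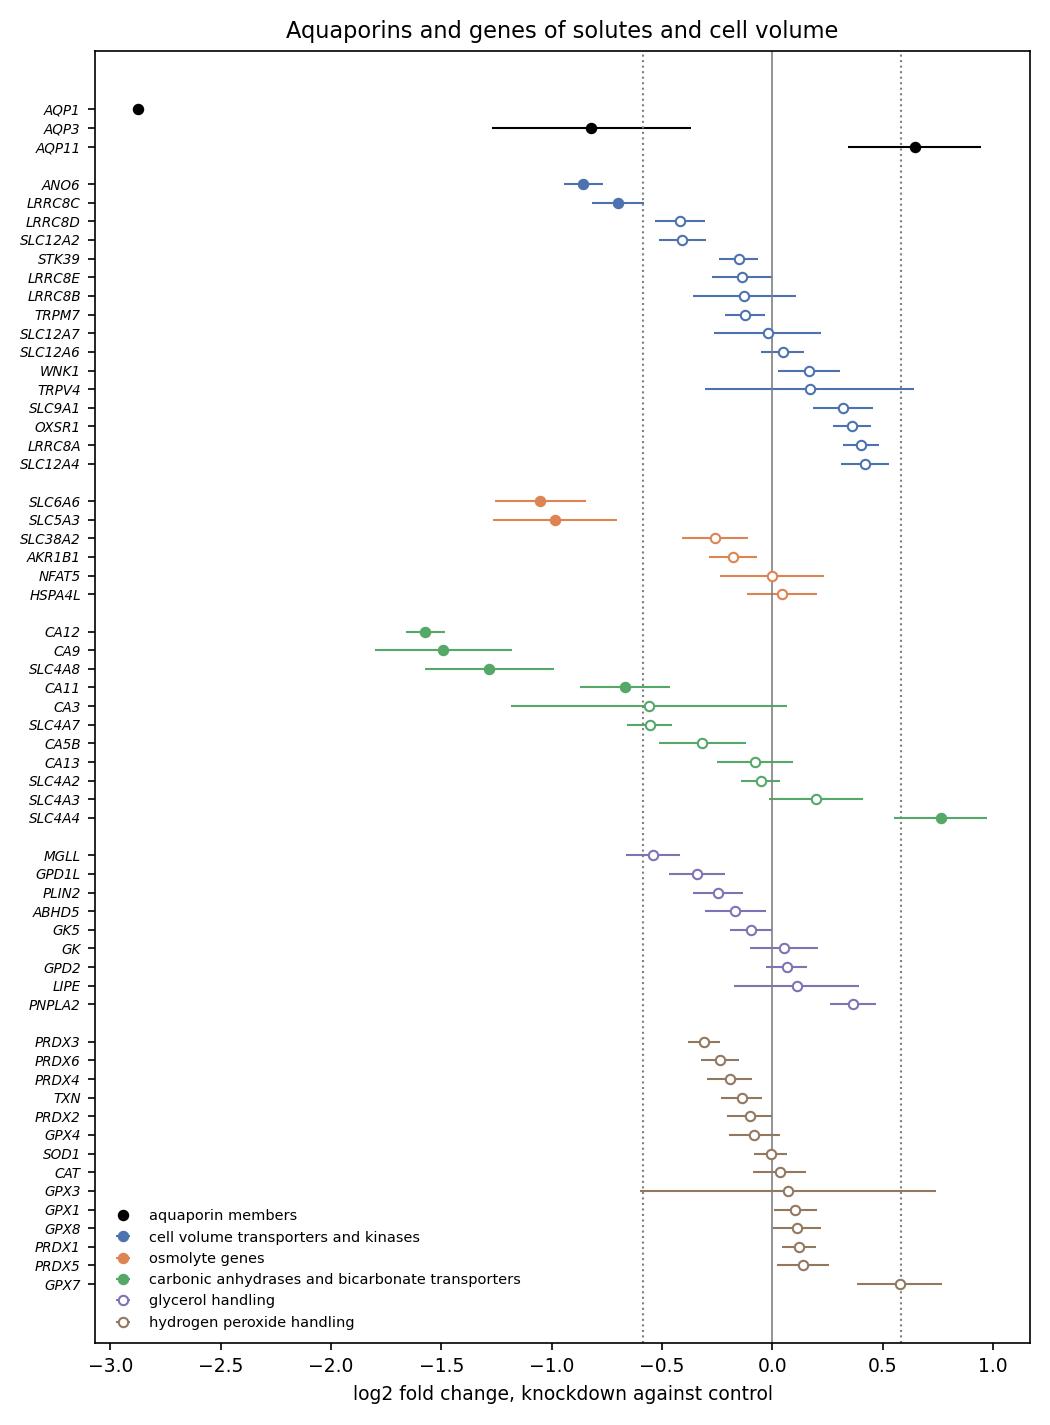
Each row is a tested gene with its log2 fold change (knockdown against control) and 95% interval, in the colour of its list; filled points were called, dotted lines mark the fold change cutoff of 1.5, and AQP1 has no interval because it was chosen by this value. The 2 osmolyte transporters SLC6A6 and SLC5A3 and the carbonic anhydrases CA12 and CA9 lie left of the cutoff, whereas genes of glycerol and hydrogen peroxide handling all lie between the lines.

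AQP1 is also a marker of endothelial and red blood cells. Of 12 endothelial markers, 6 were tested, of which TIE1 and KDR were lower (log2 fold changes -1.58 and -0.68) and CDH5 was higher (1.45), 50% called against 11.7% of all genes. VWF, EGFL7 and ROBO4 were tested and not called (log2 fold changes 0.29, 0.13 and 0.021). The summed level of the 12 genes was 62.5 to 65.1 CPM in control and 45.9 to 48.8 CPM in knockdown libraries. Most of that sum was KDR, with 1520 normalized counts on average in control and 950 in knockdown libraries. Of the 6 markers under the filter, TEK and ESAM had 18 and 24 counts over the 6 libraries, and PECAM1, CLDN5, ERG and EMCN had 8, 2, 1 and 1. Of 6 erythroid markers none was tested, HBA1, ALAS2 and SLC4A1 had 0 counts, and the summed level was 0.032 to 0.104 CPM in control and 0 to 0.030 CPM in knockdown libraries. Among 6 leukocyte markers, CD14 was lower (-0.98), PTPRC was not called, and CD3E and MS4A1 had 0 counts; the summed level was 49.98 to 56.4 against 26.2 to 28.02 CPM. Nearly all of that sum was CD14, with 1707 normalized counts on average in control and 863 in knockdown libraries, while PTPRC had 23.8 and 20.4 and CD68 and LYZ had 7 and 3 counts over the 6 libraries. Of 4 adipocyte markers, PLIN1 was tested and not called, ADIPOQ and LEP had 0 counts, and the sum was 0.322 to 0.487 against 0.300 to 0.386 CPM. None of 7 stromal markers was called, with 5075 to 5655 CPM in control and 4437 to 4679 CPM in knockdown libraries. Of 9 epithelial markers, 8 were tested, of which CDH1 (-2.02), KRT19 (-0.88), KRT8 (-0.63) and KRT7 (-0.59) were lower, 50% called against 11.7% of all genes. KRT18 (-0.55), CLDN4 (-0.70), MUC1 (-0.18) and EPCAM (0.31) were tested and not called, and CLDN3 was under the filter with 10 counts. The summed level was 6200 to 6540 CPM in control and 3969 to 4152 CPM in knockdown libraries, nearly all of it KRT8, KRT18 and KRT19. With library size alone as scaling, KRT8 (-0.56) and KRT7 (-0.53) were under the cutoff, and so was KRT7 with at least 10 counts required in every library (-0.584) and when control library 1 (-0.55), knockdown library 2 (-0.58) or knockdown library 3 (-0.56) was left out. The study also measured some of these genes apart from sequencing. It reports lower CDH1 by qRT-PCR and Western blot, and a smaller fall by qRT-PCR with another siRNA, LINC01133b, which was not sequenced. For KRT7 and KRT19 it states that a reduction against the control siRNA could not be established. In bulk RNA, fewer cells of a type and less RNA per cell cannot be told apart. The part of these lists in the change of AQP1 was not tested.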

How the data were processed

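RNA-sequencing of 3 control and 3 knockdown libraries of 12Z cells was used. The authors aligned paired reads with STAR 2.7.6a to GRCh38.p13 (annotation GENCODE v36) and deposited STAR's raw gene counts, which are not normalized and leave out reads mapping to several places (SAMtools 1.10 was also named in the submitters' notes). Counts from the reverse-strand column were used, and the unstranded column as an alternative. Of 60660 genes, 60463 were matched by identifier to GENCODE v44, which gave symbols, positions, exon lengths and transcripts; of the listed genes, SOD2 was not matched and is not used here. Exon lengths of v44 can differ from v36. The library kit is given differently in the labels (NEB) and the methods (Illumina TruSeq).

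Genes were kept by filterByExpr (minimum count 10), normalized by TMM and compared with edgeR 4.0.16 (R 4.3.3) by its quasi-likelihood test with the condition as the only term, two-sided. Normalized counts are counts divided by the effective library size and scaled to its mean. Log2 CPM used a prior count of 2. Alternatives were DESeq2 1.42.0, other scalings and filters, no fold change cutoff, the replicate number as a block, and fits leaving out single libraries. The procedure was also run on simulated data with planted changes larger than those of AQP3 and AQP11, and no call rests on that run. Ratios of genes with few counts have exact binomial intervals. Named genes were all aquaporin genes, genes nearest AQP1 in rank, pattern or position, every called gene of a list and the best counted others; only part of these are printed. The members and lists were chosen with earlier results of these data known.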

Additional observations from a re-analysis of the deposited data

Results flagged for a closer look

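Reads on the strand opposite to MIP, the lens aquaporin gene, were counted in the column that the comparison did not use. They came to 43, 38 and 43 counts in control libraries 1 to 3 and 79, 64 and 67 in knockdown libraries 1 to 3, or 1.32 ± 0.0596 and 2.11 ± 0.218 CPM (SD, n = 3 each). Every knockdown library was above every control library, which brought this result up for a closer look. SPRYD4 (plus strand, chromosome 12, positions 56468578 to 56479708 of GRCh38) overlaps MIP there and had 171, 168 and 153 counts in control and 330, 268 and 247 in knockdown libraries, a log2 fold change of 0.69 (edgeR, adjusted p = 6.3e-05). MIP itself had 0 counts on its own strand.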

How the results depend on the processing

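AQP1, AQP3 and AQP11 kept their direction under all 14 alternatives. AQP1 was chosen by its loss in these same libraries, so its direction and its calls here are a description and give no support. The alternative without the fold change cutoff reused the main fit, so its values could not change. In fits without 1 library, log2 fold changes lay between -3.07 and -2.72 (AQP1), -0.95 and -0.67 (AQP3) and 0.58 and 0.72 (AQP11). AQP11 was not called without control replicate 2 (0.578). The number of aquaporin genes called then ranged from 2 to 3, of them 0 to 1 higher. The genes of the 6 solute and volume lists called ranged from 8 to 11 (9 with all libraries), of them 1 to 2 higher and 7 to 9 lower. All genes called ranged from 1641 to 1815 (1778 with all libraries), with 43.1% to 46.8% higher. With library size alone as scaling, 55.9% of calls were higher, against 45.2%, and 2 listed genes were higher. Without the fold change cutoff, 7315 genes were called, and 32 listed genes, 8 higher and 24 lower. DESeq2 called 1526 genes and the same number of aquaporin genes, 3. For 17 called genes of the lists and markers, 231 of 238 values stayed past the cutoffs and 0 reversed. Among these are 17 values without the fold change cutoff, which came from the main fit and stayed by construction.

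No clear sign that the replicate numbers pair the libraries was seen: deviations of same-numbered libraries from their group means correlated at -0.015, 0.0049 and 0.057. With 3 libraries per group, this cannot establish that they were unpaired. With the replicate block, 1747 genes were called, 3 aquaporin genes among them, with log2 fold changes of -0.82 for AQP3 and 0.65 for AQP11; not every library correlated best with its own number. Depth limits the 5 aquaporin genes under the filter: 3 counts correspond to 0.0799 to 0.108 CPM per library.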

Other observations

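Opposite-strand reads were also counted over AQP11 and AQP6. In control libraries 1 to 3, AQP11 had 22, 13 and 18 of them, against 67, 51 and 68 counts on its own strand. AQP6 had 8, 7 and 10 there, more than its own-strand counts of 3, 3 and 0. In knockdown libraries 1 to 3 AQP11 had 25, 21 and 19 against 121, 95 and 93, and AQP6 had 10, 12 and 6 against 0 in each. Over AQP11 they came to 0.557 ± 0.0969 CPM in control and 0.650 ± 0.0184 CPM in knockdown libraries (SD, n = 3 each), and over AQP6 to 0.266 ± 0.0472 and 0.277 ± 0.0761 CPM, with overlapping groups for both genes.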
